A study of Mus musculus with 8 samples.

Results

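In taste cells and in intestinal tuft cells, a receptor for a chemical cue hands its signal to the same short chain of proteins. A heterotrimeric G protein (alpha-gustducin, encoded by Gnat3, with a beta and a gamma subunit, among them those encoded by Gnb3 and Gng13) releases its beta-gamma pair, which activates the phospholipase encoded by Plcb2. That enzyme cleaves a membrane phosphoinositide into diacylglycerol and inositol trisphosphate (IP3), IP3 opens the calcium channels of the endoplasmic reticulum encoded by Itpr2 and Itpr3, and the released calcium opens the monovalent cation channels encoded by Trpm5 and Trpm4. Trpm5 is in common use as a tuft cell marker, and tuft cells are an uncommon chemosensory lineage of the intestinal lining.

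These 8 genes were taken by name from the deposited count table, which lists 35199 genes, and all 8 have a count in at least 1 library. The libraries came from tuft cells of the jejunum of transgenic mice in which a Dclk1 bacterial artificial chromosome drives a diphtheria toxin receptor and the green fluorescent protein ZSgreen (Dclk1-DTR-ZSgreen), so the cells sorted are those in which that transgene is active. Mice of 8 to 10 weeks carried an osmotic pump for 7 days that delivered either scopolamine, a nonselective blocker of muscarinic acetylcholine receptors, at 0.5 mg/kg per day (4 mice, replicates 1 to 4) or sodium chloride (4 sham mice, replicates 5 to 8). All 8 mice carried the reporter, and each mouse gave 1 library. For replicates 1 and 5, 3000 cells were sorted, and for the other 6 mice 4000. The comparison asks whether the RNA of the cascade differs in tuft cells after muscarinic blockade.

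The total estimated count was 14343362 to 20857433 in the scopolamine libraries and 25769940 to 41428916 in sham. The 4 sham libraries all exceed the 4 scopolamine libraries in depth, and the effects of depth and of treatment cannot be told apart here. Sham replicates 5 and 7 were amplified from 200 pg of RNA over 15 cycles, and the other 6 libraries from 1000 pg over 10 cycles. Tuft cell markers were present in every library: 28 listed genes summed to 41941 to 69767 CPM (read counts relative to library size, scaled by TMM factors for library composition) with scopolamine and 52933 to 60848 CPM in sham (p = 0.514 by a two-sided exact permutation test), none of them at 0 in every library, and 24 of the 28 had the lower mean with scopolamine (median log2 fold change -0.14). RNA of genes that mark other epithelial cells was present too, although the gate took live cells that the paper labels EPC-high and ZSgreen-positive. Whether it came from other cells or from the sorted cells themselves was not tested. Enterocyte markers (20 genes) summed to 3551 to 7844 CPM with scopolamine and 2709 to 7040 CPM in sham (exact p = 0.2), and all 20 had the higher mean with scopolamine (median log2 fold change 1.56). Fabp1, a fatty acid binding protein gene, made up 51.1% to 87.8% of that sum. The other 19 genes summed to 930 to 3538 CPM with scopolamine and 330 to 1768 CPM in sham. Their sum was on average 2.83-fold higher with scopolamine (exact p = 0.0571). When single libraries were dropped, this fold was smallest (2.22) for scopolamine replicate 2 and largest (5.06) for sham replicate 5. Of the 20, 8 had an unadjusted p under 0.05 in edgeR (5.99% of all genes tested) and 0 passed after adjustment, and DESeq2 (1.31% of all genes called) called Slc5a1 and Anpep, which encode a glucose transporter and a peptidase of the brush border. Goblet and Paneth markers (16 genes) summed to 760 to 3649 CPM with scopolamine and 428 to 1508 CPM in sham (exact p = 0.0857), and 15 of the 16 had the higher mean with scopolamine. In such sorted pools, fewer cells of a type and less RNA per cell cannot be told apart.

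Across the cascade, no member passed the test between scopolamine and sham, and in all 8 the groups overlapped. Among the 12849 genes past the expression filter, edgeR's quasi-likelihood test called 0% at a Benjamini-Hochberg adjusted p under 0.1, with a smallest adjusted p of 0.439, so the absence of calls among the members matches the background. At an unadjusted p under 0.05 it called 770 genes, 5.99% of those tested, and 1 of the 7 members that passed the filter (Trpm4). DESeq2 called 1.31% of the 14462 genes to which it gave an adjusted p and 0 of 8 members. The groups did not overlap in 3.88% of the genes tested, against 0 of 8 members. The median log2 fold change was -0.08 over the 7 members tested and -0.01 over the 12849 genes, and the median standard error was 0.27 for members and 0.42 for all genes. The plot of levels by library shows how the mice spread.

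**Figure D1:**
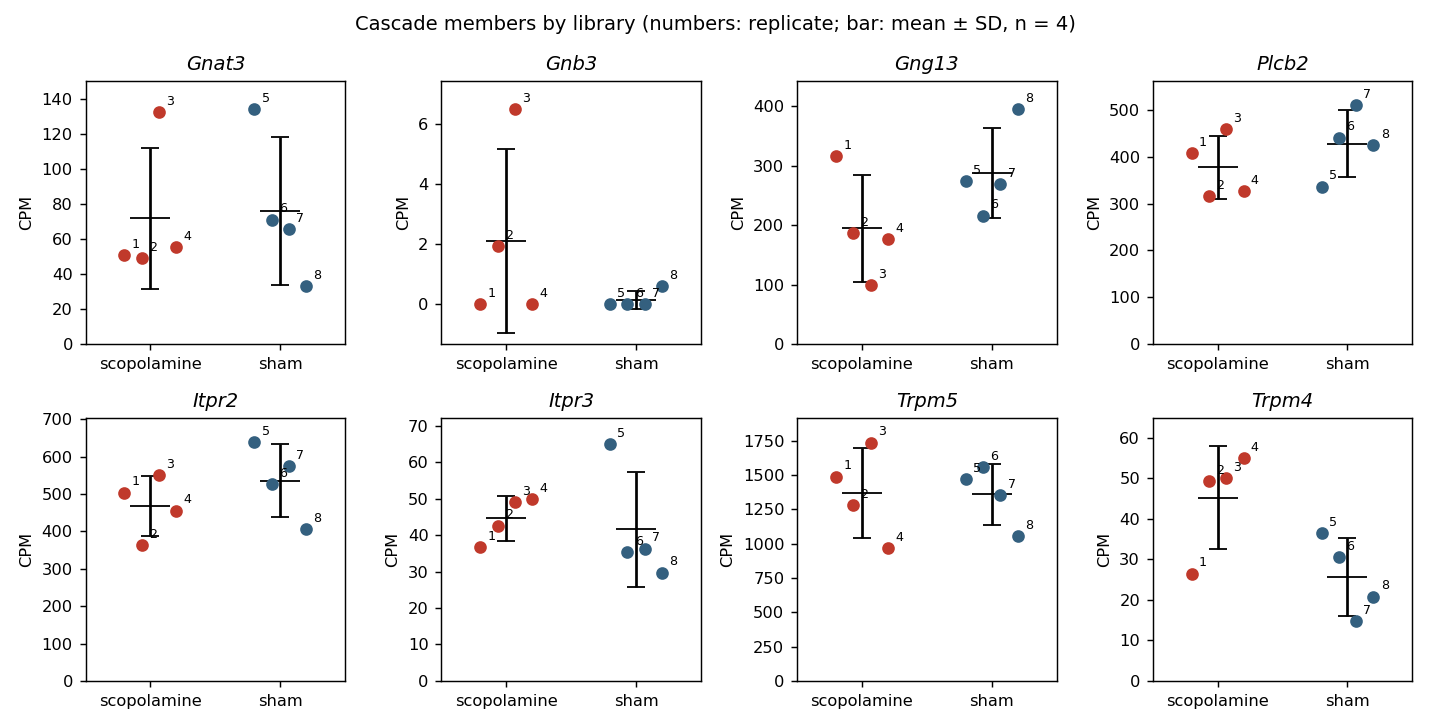
Level of each of the 8 cascade genes in CPM (vertical axis, linear, starting at or below 0) in the 4 scopolamine libraries (red) and the 4 sham libraries (blue), with replicate numbers beside the points and the mean ± SD as a bar. The groups overlap in every panel, as for Trpm5 (966 to 1737 against 1052 to 1558 CPM), and Gnb3 is at 0 in 5 libraries.

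The alpha subunit gene Gnat3 (ENSMUSG00000028777, chromosome 5 from 17962549 to 18019834 of GRCm38, plus strand) was measured at 50.7, 49.1, 132 and 55.6 CPM in scopolamine replicates 1 to 4 and at 134, 71.0, 65.6 and 33.3 CPM in sham replicates 5 to 8. A high library stood in each group, scopolamine replicate 3 and sham replicate 5, and the remaining 6 lay between 33.3 and 71.0 CPM. The log2 fold change was -0.08 (standard error 0.43, adjusted p = 0.992), with a 95% interval on the fold of 0.487 to 1.84. The sign was not stable, and without sham replicate 5 the log2 fold change was 0.34 (adjusted p = 0.847).

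Set against the other 15 alpha subunits, Gnat3 was a minor species. Per kilobase of transcript (transcript abundance in TPM units, computed from the counts and the longest coding transcript), it held 5.08% of the alpha subunit RNA on average over the 8 libraries, from 2.30% to 9.20%. Gnai2, an inhibitory alpha subunit found in most cells, held 60.8%, and Gnas, which stimulates adenylyl cyclase, held 20.3%. Gnat3 lay below Gnai2 in 8 of 8 libraries, on average 12.99-fold (exact sign-flip test over the libraries, two-sided, adjusted p = 0.00911 over 7 pairs of relatives). Its share was 5.01 ± 1.97% after scopolamine and 5.15 ± 2.90% after sham treatment (SD, n = 4 in each group; exact permutation p = 0.971).

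The beta subunit gene Gnb3 (ENSMUSG00000023439, chromosome 6 from 124834240 to 124840275, minus strand) was close to absent. Its estimated count was 41 in scopolamine replicate 2, 92 in scopolamine replicate 3, 20 in sham replicate 8 and 0 in the other 5 libraries. Where it is listed at 0, a count of 0 allows up to 3 counts, which is 0.0724 to 0.148 CPM in those libraries before TMM scaling. The level in the 3 libraries with counts was 1.92, 6.49 and 0.597 CPM. It was removed by the expression filter of edgeR, and with 2 scopolamine libraries and 1 sham library above 0 no fold is given. By contrast, Gnb2 and Gnb1, the common beta subunits, held 61.5% and 37.3% of the beta subunit RNA per kilobase, and Gnb3 held 0.218%. It was below each of them in 8 of 8 libraries (exact sign-flip test, adjusted p = 0.00911).

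The gamma subunit gene Gng13 (ENSMUSG00000025739, chromosome 17 from 25717171 to 25719406, plus strand) encodes the partner of gustducin in taste cells. It was measured at 317, 187, 99.5 and 177 CPM in scopolamine replicates 1 to 4 and at 274, 216, 269 and 395 CPM in sham replicates 5 to 8. In 3 of 4 scopolamine libraries it lay below every sham library, and replicate 1 lay above 3 of the 4 sham libraries. The log2 fold change was -0.57 (standard error 0.31, adjusted p = 0.815), with a 95% interval on the fold of 0.419 to 1.09. Without scopolamine replicate 1 it was -0.90 (unadjusted p = 0.00879, adjusted p = 0.54), and without scopolamine replicate 3 it was -0.35 (unadjusted p = 0.218).

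The longest coding transcript of Gng13 measures 719 nt, the shortest of the 8 members, and genes with short transcripts were set beside it in each library. Over 220 genes with transcripts of at most 800 nt and at least 50 CPM on average, the median of log2 CPM minus each gene's mean over the libraries was lowest in scopolamine replicate 3 (-0.52) and highest in sham replicate 8 (0.43). Gng13 was lowest and highest in the same 2 libraries, at -1.18 and 0.81. When Gng13 was taken relative to the 200 genes nearest to it in length (586 to 884 nt), the difference between the group means narrowed from -0.65 to -0.38 on the log2 scale (exact permutation p = 0.143 and 0.257), and its SD over the 8 libraries fell from 0.61 to 0.42. Neither difference passed. That scaling was chosen after the values were seen, and the part of transcript length in the difference was not tested.

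**Figure D2:**
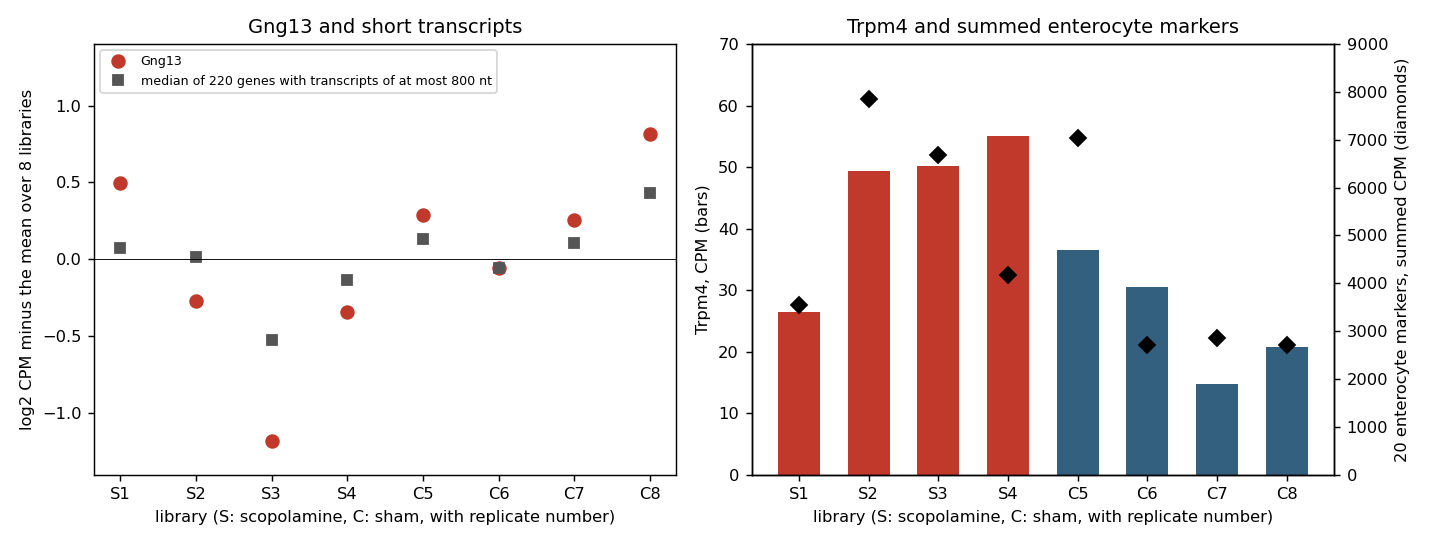
Left, Gng13 (circles) and the median of 220 genes with short transcripts (squares) in each library, as log2 CPM minus the mean over the 8 libraries; both are lowest in scopolamine replicate 3 and highest in sham replicate 8. Right, Trpm4 in CPM (bars, left axis) and the sum of 20 enterocyte markers in CPM (diamonds, right axis) in the same libraries; the 4 libraries with the highest marker sums (scopolamine replicates 2, 3 and 4 and sham replicate 5, 4168 to 7844 CPM) are also the 4 with the highest Trpm4 levels (36.6 to 55.0 CPM).

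Per kilobase, Gng13 was the leading gamma subunit, with 47.4% of the family's RNA (33.1% to 54.5%), followed by Gng5 with 37.3% and Gng12 with 5.75%. Both of these are widely expressed gamma subunits. The lead over Gng5 was 1.27-fold and was seen in 7 of 8 libraries (exact sign-flip test, adjusted p = 0.0547), and it turned on the length assigned to the transcripts. With the median coding transcript, Gng13 was below Gng5 in 8 of 8 libraries, at 0.419 times its level, and with no length at 0.376 times. The Gng13 share was 44.5 ± 8.86% after scopolamine and 50.4 ± 2.31% after sham treatment (SD, n = 4 in each group; exact permutation p = 0.257). Exons of Gng13 share 399 nt with the opposite-strand gene Chtf18, and since no source states a stranded count, reads of the pair may be mixed.

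The phospholipase gene Plcb2 (ENSMUSG00000040061, chromosome 2 from 118707517 to 118728438, minus strand) lay between 316 and 510 CPM in all 8 libraries. It was measured at 408, 316, 458 and 326 CPM in scopolamine replicates 1 to 4 and at 336, 441, 510 and 425 CPM in sham replicates 5 to 8. The ranges overlapped over most of their length, and the log2 fold change was -0.18 (standard error 0.17, adjusted p = 0.895), with a 95% interval on the fold of 0.675 to 1.15.

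The share of Plcb2 within its family differed widely between libraries. It held 90.2%, 56.9%, 76.7% and 77.7% of the phospholipase C beta RNA per kilobase in scopolamine replicates 1 to 4, and 68.8%, 90.9%, 88.7% and 92.8% in sham replicates 5 to 8. The remainder was mostly Plcb3, which acts downstream of Gq-coupled receptors in many tissues and was at 11.5, 78.3, 45.3 and 27.0 TPM with scopolamine and at 43.6, 13.2, 18.5 and 7.25 TPM in sham. Plcb3 was higher in the libraries with more enterocyte marker RNA. The 4 libraries with the highest enterocyte sums, scopolamine replicate 2 (7844 CPM), sham replicate 5 (7040 CPM), scopolamine replicate 3 (6675 CPM) and scopolamine replicate 4 (4168 CPM), were the 4 with the lowest Plcb2 shares. They also had the 4 highest sums without Fabp1, at 3538, 1768, 2095 and 2039 CPM. The part of enterocyte marker RNA in this was not tested.

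Over all libraries Plcb2 exceeded Plcb3 by 5.40-fold, in 8 of 8 (exact sign-flip test, adjusted p = 0.00911), with a range of 1.35-fold to 16.4-fold. Plcb4 held 1.27% of the family's RNA. The Plcb2 share was 75.4 ± 13.8% after scopolamine and 85.3 ± 11.1% after sham treatment (SD, n = 4 in each group), a difference of -9.93 percentage points that did not exceed the spread between mice (exact permutation p = 0.314). It was -3.78 points without scopolamine replicate 2 and -15.4 points without sham replicate 5.

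**Figure D3:**
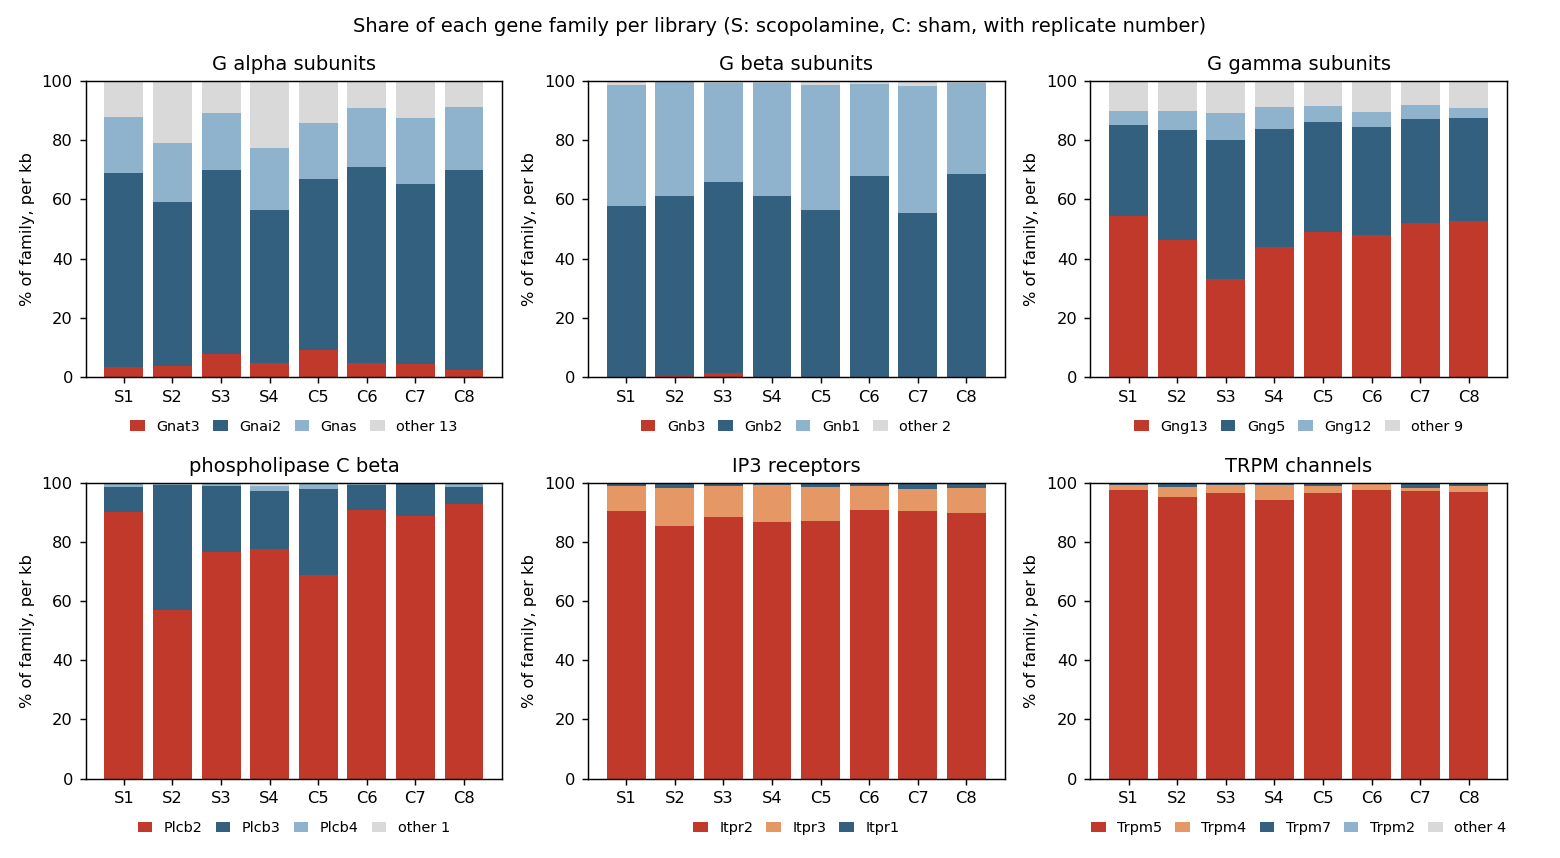
Share of each gene family's RNA per kilobase (vertical axis, percent, 0 to 100) in each of the 8 libraries, with cascade members in red and orange and relatives in blue and grey. Members hold nearly all of the IP3 receptor and TRPM panels and most of phospholipase C beta, with the lowest Plcb2 share in scopolamine replicate 2 (56.9%), and little of the alpha and beta subunit panels.

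Of the IP3 receptors, Itpr2 (ENSMUSG00000030287, chromosome 6 from 146108299 to 146502223, minus strand) predominated. It was measured at 504, 364, 551 and 455 CPM in scopolamine replicates 1 to 4 and at 638, 526, 574 and 406 CPM in sham replicates 5 to 8. Sham replicates 5 and 7 exceeded every scopolamine library, and sham replicate 8 was below 3 of them. Replicates 5 and 7 are the libraries made from 200 pg, and without them the log2 fold change of Itpr2 was -0.01. The part of RNA input in this was not tested. With all 8 libraries the log2 fold change was -0.19 (standard error 0.18, adjusted p = 0.887), with a 95% interval on the fold of 0.665 to 1.15.

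Itpr3 (ENSMUSG00000042644, chromosome 17 from 27057304 to 27122223, plus strand), the IP3 receptor of taste cells, was the lesser of the pair. It was measured at 36.7, 42.6, 49.1 and 49.9 CPM in scopolamine replicates 1 to 4 and at 64.9, 35.3, 36.3 and 29.7 CPM in sham replicates 5 to 8. Sham replicate 5 was the highest library, and the other 3 sham libraries lay below every scopolamine library. The log2 fold change was 0.10 (standard error 0.27, adjusted p = 0.977), and without sham replicate 5 it was 0.39. The 4 libraries with the highest Itpr3 (scopolamine replicates 2, 3 and 4 and sham replicate 5) were also those with the highest enterocyte marker sums, and the part of that RNA was not tested. Exons of Itpr3 share 233 nt with the antisense gene Itpr3os.

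Per kilobase, Itpr2 held 88.7% of IP3 receptor RNA (85.3% to 90.9%), Itpr3 9.94% (7.44% to 12.95%) and Itpr1, the receptor best known from neurons, 1.36%. Itpr2 exceeded Itpr3 by 9.10-fold, in 8 of 8 libraries (exact sign-flip test, adjusted p = 0.00911). The ratio was 8.20 ± 1.80 after scopolamine and 10.4 ± 2.03 after sham treatment (SD, n = 4 in each group; exact permutation p = 0.171, adjusted p = 0.6 over 7 ratios of members). Members together held 98.8 ± 0.42% of the family after scopolamine and 98.4 ± 0.365% after sham treatment (SD, n = 4 in each group; exact permutation p = 0.229).

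Among the cation channels, Trpm5 (ENSMUSG00000009246, chromosome 7 from 143069153 to 143094642, minus strand) was the most abundant member by CPM, at the 99.7th percentile of all genes with a count. It was measured at 1488, 1282, 1737 and 966 CPM in scopolamine replicates 1 to 4 and at 1469, 1558, 1353 and 1052 CPM in sham replicates 5 to 8. The scopolamine range enclosed the sham range, and the mean was 1368 ± 326 CPM after scopolamine and 1358 ± 220 CPM after sham treatment (SD, n = 4 in each group). The log2 fold change was 0.01 (standard error 0.19, adjusted p = 0.996), with a 95% interval on the fold of 0.748 to 1.36. Exons of Trpm5 share 220 nt with the opposite-strand gene Tssc4.

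Trpm4 (ENSMUSG00000038260, chromosome 7 from 45302632 to 45333780, minus strand), a calcium-activated channel of many tissues, had the log2 fold change farthest from 0 among the 7 members tested by edgeR. It was measured at 26.5, 49.4, 50.2 and 55.0 CPM in scopolamine replicates 1 to 4 and at 36.6, 30.5, 14.8 and 20.8 CPM in sham replicates 5 to 8. In 3 of 4 scopolamine libraries it exceeded every sham library, and replicate 1 lay between the sham values. The log2 fold change was 0.82 (standard error 0.33, 95% interval on the fold 1.06 to 2.94, unadjusted p = 0.0324), but it did not pass over all genes (adjusted p = 0.812, and 0.328 by DESeq2). The exact permutation test of the mean log2 CPM gave p = 0.0857. The unadjusted p stayed under 0.05 in 11 of 18 other fits and scalings, and the direction was the same in all 18.

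Enterocyte markers were also higher on average in the scopolamine libraries, at a sum of 5560 ± 2036 CPM (SD, n = 4) against 3834 ± 2139 CPM (SD, n = 4), and without Fabp1 at 2151 ± 1069 CPM (SD, n = 4) against 761 ± 681 CPM (SD, n = 4). The 4 libraries with the highest enterocyte sums (scopolamine replicates 2, 3 and 4 and sham replicate 5) were also the 4 with the highest Trpm4, at 36.6 to 55.0 CPM against 14.8 to 30.5 CPM in the other 4. The same 4 libraries had the highest sums without Fabp1. The part of enterocyte marker RNA in the Trpm4 difference was not tested.

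Within the TRPM family Trpm5 held 96.4% of the RNA per kilobase, Trpm4 2.54%, Trpm7, a widely expressed channel with a kinase domain, 0.962%, and Trpm2 0.0499%. Trpm5 exceeded Trpm4 by 42.4-fold, in 8 of 8 libraries (exact sign-flip test, adjusted p = 0.00911). The ratio of Trpm5 to Trpm4 was 57.7, 26.7, 35.6 and 18.0 in scopolamine replicates 1 to 4 and 41.2, 52.4, 93.8 and 52.0 in sham replicates 5 to 8. It was lower in 3 of 4 scopolamine libraries than in any sham library, and the difference did not pass (exact permutation p = 0.114, adjusted p = 0.6). The size of the ratios between relatives depended on the length assigned: with the median coding transcript Gnat3 was 46.3-fold below Gnai2, and Plcb2 exceeded Plcb3 by 2.46-fold (in 7 of 8 libraries), Itpr2 Itpr3 by 20.6-fold and Trpm5 Trpm4 by 209-fold, with the same directions.

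**Figure D4:**
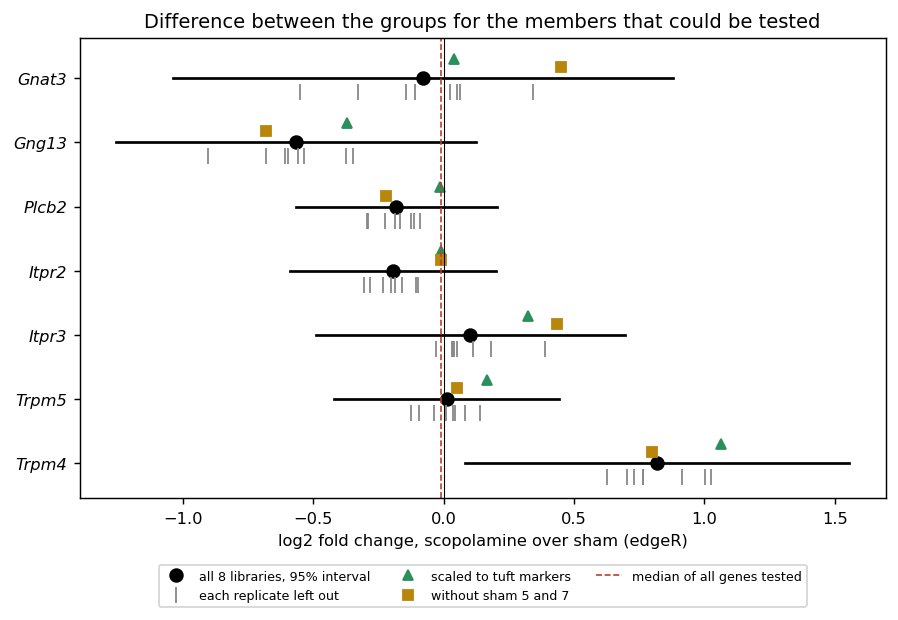
Log2 fold change of the 7 tested members, scopolamine over sham (horizontal axis, edgeR), with the 95% interval (black line), the values with each replicate left out (grey ticks), with scaling to tuft cell markers (green triangles) and without sham replicates 5 and 7 (gold squares). The interval of Trpm4 lies above 0 before correction over all genes, that of Gng13 spans -1.26 to 0.13, and the values of the other 5 lie between -0.19 and 0.10, with the median of all genes tested at -0.01 (red dashed line).

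Ordered by level per kilobase over the 8 libraries, the members spanned more than 2 orders of magnitude only with Gnb3, which was at 0 in 5 libraries. The means of the other members ran from 540 TPM (Trpm5) to 7.83 TPM (Itpr3). Trpm5 averaged 540 ± 122 TPM (SD, n = 8) and Gng13 536 ± 173 TPM (SD, n = 8), and these neighbours did not differ beyond their spread (exact sign-flip test, adjusted p = 0.805 over 7 neighbouring pairs). Plcb2 followed at 127 ± 21.9 TPM (SD, n = 8), 4.06-fold below Gng13 in 8 of 8 libraries (exact sign-flip test, adjusted p = 0.0182). Gnat3 at 89.3 ± 48.0 TPM (SD, n = 8) and Itpr2 at 69.98 ± 13.03 TPM (SD, n = 8) came next. The step from Plcb2 to Gnat3 was 1.58-fold, in 6 of 8 libraries, and passed at 0.1 but not at 0.05 (exact sign-flip test, adjusted p = 0.0656), and that from Gnat3 to Itpr2 passed at neither (exact sign-flip test, adjusted p = 0.374). Of the 7 neighbouring pairs, 4 differed at an adjusted p under 0.05 and 5 at 0.1. The pairs were taken from the order in these same 8 libraries, so the tests do not bear on the order independently.

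Trpm4 at 13.9 ± 6.40 TPM (SD, n = 8) lay 5.52-fold below Itpr2 in 8 of 8 libraries (exact sign-flip test, adjusted p = 0.0182), Itpr3 at 7.83 ± 2.18 TPM (SD, n = 8) lay below Trpm4 in 7 of 8 (exact sign-flip test, adjusted p = 0.0273), and Gnb3 at 1.05 ± 2.16 TPM (SD, n = 8) was last. The order depended on the length used: with merged exons Gng13 led Trpm5 in 7 of 8 libraries (exact sign-flip test, adjusted p = 0.155) and Itpr3 exceeded Trpm4 in 8 of 8 (adjusted p = 0.0137). With the median coding transcript Trpm5 exceeded Gng13 by 4.37-fold in 8 of 8 (exact sign-flip test, adjusted p = 0.0137), and Itpr2 moved above Plcb2, by 1.17-fold in 7 of 8 (adjusted p = 0.0312), and so above Gnat3. On counts with no length, which are not levels per kilobase, the order was Trpm5, Itpr2, Plcb2, Gng13, Gnat3, Itpr3, Trpm4 and Gnb3, with Plcb2 1.76-fold above Gng13 in 8 of 8 libraries (exact sign-flip test, adjusted p = 0.0137).

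Trpm5 and Itpr2 kept the closest ratio among the members with levels of at least 50 CPM. The SD over the 8 libraries of the log2 ratio of their CPM was 0.25, against a median of 0.41 for Trpm5 with each of 3216 other genes of that level, and it placed Itpr2 at rank 290 in nearness to Trpm5. Plcb2 had SDs of 0.30 to Trpm5 and 0.29 to Itpr2, which placed them at ranks 1039 and 970 of 3216 in nearness to Plcb2, whose median SD with all of these genes was 0.35. Gnat3 and Gng13, whose proteins form one G protein in taste cells, were far apart in RNA, with an SD of 1.16 and a rank of 3132 of 3216 for Gng13 in nearness to Gnat3: the ratio per kilobase of Gng13 to Gnat3 ran from 1.42 in scopolamine replicate 3 to 22.5 in sham replicate 8.

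The non-member genes nearest in pattern, by the smallest SD of that log2 ratio, were Ush1c (0.11), Glg1 (0.11) and Baz2b (0.11) for Trpm5. For Itpr2 they were Mia2 (0.082), Dclk1 (0.11), the gene whose promoter drives the reporter, and Pbrm1 (0.12), and for Plcb2 Gimap1 (0.081), Dram2 (0.082) and BC004004 (0.083). Gnat3 was nearest to Atp2b2 (0.22), a plasma membrane calcium pump, then Cdkn1c (0.30) and Dio1 (0.35). Gng13 was nearest to mt-Nd6 (0.13), Cops9 (0.17) and Tmem256 (0.18), Itpr3 to Srrm2 (0.19), Gata6 (0.19) and Gm609 (0.20), and Trpm4 to Cndp2 (0.21), Gstp2 (0.29) and Itpk1 (0.29). All of these SDs are over the same 8 libraries, which differ in depth and RNA input.

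Upstream of the cascade, 5 of 16 listed taste and other receptors had a count, and 0 of 4 tested passed in edgeR. Tas1r3, a subunit of the sweet and umami receptors, was at 11.1, 12.9, 13.5 and 8.70 CPM in scopolamine replicates 1 to 4 and at 26.2, 15.7, 34.6 and 34.5 CPM in sham replicates 5 to 8. Every scopolamine library lay below every sham library (3.88% of all genes tested did not overlap in either direction), and the log2 fold change was -1.27 (standard error 0.34, adjusted p = 0.812 by edgeR and 0.021 by DESeq2, which called 1.31% of all genes). Ffar3, a receptor for short-chain fatty acids, was at 375 ± 94.4 CPM after scopolamine and 411 ± 55.1 CPM after sham treatment (SD, n = 4 in each group), Sucnr1, the succinate receptor, at 63.4 ± 49.5 and 56.3 ± 20.01 CPM, and Vmn2r26 at 16.7 ± 8.14 and 25.0 ± 6.21 CPM.

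In the list of 27 other taste transduction genes, 24 had a count, 15 were tested and 0 passed in edgeR or DESeq2, with 7 higher and 8 lower by the sign of the fold change. Pde2a, a cyclic nucleotide phosphodiesterase, had a log2 fold change of -0.35 (standard error 0.24), Kcnq1, a potassium channel subunit, -0.27 (standard error 0.19), and Adcy6, an adenylyl cyclase, 0.47 (standard error 0.27).

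Downstream, 21 of 23 listed genes of store calcium handling were tested, of which 0 passed in edgeR and 1 in DESeq2 (1.31% over all genes). That gene was Orai1, the pore subunit of the store-operated calcium channel, at 77.1, 98.3, 108 and 75.4 CPM with scopolamine and at 65.4, 57.2, 39.1 and 54.9 CPM in sham. The groups did not overlap (3.88% of all genes tested), and the log2 fold change was 0.73 (standard error 0.21, adjusted p = 0.812 by edgeR and 0.0694 by DESeq2). Enterocyte markers (20 of 20) and goblet and Paneth markers (15 of 16) also had the higher mean with scopolamine. Sham replicate 5 had the highest Orai1 level and the highest enterocyte sum in its group. With scopolamine the orders differed: replicate 3 had the highest Orai1 level and replicate 2 the highest sum (7844 CPM). Replicate 1, with the lowest sum there (3551 CPM), exceeded replicate 4 and sham replicate 5 (7040 CPM) in Orai1. The part of these markers in the difference was not tested. Atp2a3, a calcium pump of the endoplasmic reticulum, had a log2 fold change of 0.06 (standard error 0.25).

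Of 22 genes that supply phosphoinositides or remove IP3, 20 were tested, of which 0 passed in edgeR and 1 in DESeq2 (1.31% over all genes). In edgeR 5 of the 20 had an unadjusted p under 0.05, against 5.99% of all genes tested, and in these 5 the level was higher in scopolamine. The median log2 fold change of the 20 was 0.13. In the same libraries 20 of 20 enterocyte and 15 of 16 goblet and Paneth markers had the higher mean with scopolamine, and their part in this was not tested. The gene called by DESeq2 was Inpp1, an inositol phosphate phosphatase, at 17.9, 25.5, 36.1 and 25.6 CPM with scopolamine and at 6.78, 14.4, 12.4 and 13.8 CPM in sham. Its groups did not overlap (3.88% of all genes tested), and the log2 fold change was 1.15 (standard error 0.35, adjusted p = 0.812 by edgeR and 0.0605 by DESeq2). Dgka, a diacylglycerol kinase, had a log2 fold change of 0.76 (adjusted p = 0.812 by edgeR and 0.239 by DESeq2). Plcg2, a phospholipase C activated by tyrosine kinases, was the most abundant of the list at 580 ± 98.8 CPM after scopolamine and 641 ± 104 CPM after sham treatment (SD, n = 4 in each group), and Inpp5b had a log2 fold change of -0.21.

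Pou2f3, the transcription factor on which tuft cells depend, belongs to a family that binds an octamer, so the 250 bases before each start site were searched for ATGCAAAT on both strands in RefSeq promoters of GRCm38.p6. The table held windows for 6 of the 8 members. The octamer occurred in 1.60% of all 32851 windows and, among the members, in that of Itpr3 alone, 27 bases before the start, on the strand opposite to the gene. The PU box GAGGAAGT, a motif of ETS factors such as Spib, occurred in 2.44% of the windows and in none of the members' windows. The site is shown because it is the only match, as the plus strand of chr17:27057257-27057303 with the octamer in capitals.
Itpr3: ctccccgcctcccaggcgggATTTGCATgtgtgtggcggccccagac
A match of letters is not evidence of binding, and these data hold no measurement of it.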

How the data were processed

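RNA of sorted ZSgreen-positive tuft cells was sequenced for 4 scopolamine-treated and 4 sham mice. The authors demultiplexed with bcl2fastq 2.20, assigned reads to GRCm38 transcripts with kallisto 0.44.0, summed them per gene with tximport and deposited estimated counts without normalization, as whole numbers. The annotation release and strand setting are not given in the sources used here. Kallisto divides reads between transcripts by likelihood, so reads shared by related or overlapping genes are split by estimate. RNA input and cycles are from the study's source data.

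Counts were tested in R 4.3.3 with edgeR 4.0.16 (TMM, filterByExpr, quasi-likelihood test, no covariate, Benjamini-Hochberg adjusted p under 0.1). As alternatives, DESeq2 1.42.0 and limma-voom (limma 3.58.1) were run, with other scalings, no filter or a minimum of 10 counts per library, a stricter threshold (0.05), amplification cycles or the letter of the mouse ID as a covariate, and leaving out replicates. Single values were compared by exact permutation over 70 assignments (smallest p 0.0286) and levels within libraries by exact sign-flip tests over 8 libraries (smallest p 0.00781), two-sided, with 0.05 as the threshold of these tests. TPM used the longest coding transcript of GENCODE M21 on GRCm38, which holds 34887 of the 35199 symbols. Totals of 14343362 to 41428916 make 3 counts, taken as the floor, 0.0724 to 0.209 CPM before TMM scaling. Floors and intervals on counts cover counting error only. No libraries agreed within sampling noise (smallest chi-square per degree of freedom within groups 72.7). The tests were checked on simulated data.

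The members and gene lists were chosen with earlier results of these data known. Named genes are the members, the 2 relatives with the highest TPM in each family, in other lists the 2 with the highest CPM and the 2 with the smallest p, any list gene called by either tool, and the 3 genes nearest in pattern to each member among those of at least 50 CPM. In marker lists the sums stand for most single genes, and the sums without the most abundant gene were added after the data were seen. Tuft, enterocyte, goblet and Paneth lists are described in the report, the others under other observations. Protein sequences were not used here. A gene that the rule for named genes would name is not reported here.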

Additional observations from a re-analysis of the deposited data

Results flagged for a closer look

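Among 42 sets of 4 libraries (the level of each member, the share of each family and the ratio of members, in each group), 4 held a library that stood far from the other 3. Chance marks about 1 in 20 such sets if the values are independent and normally spread, but these sets share the same counts. Where only 1 library is above 0, as for Gnb3 in sham, the set is marked whatever the level. Gnat3 was at 132 CPM in scopolamine replicate 3, against 49.1 to 55.6 CPM in the other scopolamine libraries. Gnb3 was at 0.597 CPM in sham replicate 8 and at 0 in the other sham libraries, and its share of the beta subunit RNA was 0.0914% there, which is the same reading in another form. The share of phospholipase C beta RNA held by Plcb2 was 68.8% in sham replicate 5, against 88.7% to 92.8% in the other sham libraries; this library also had the highest enterocyte marker sum in its group and was made from 200 pg of RNA, and the part of either was not tested.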

How the results depend on the processing

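No paired analysis was possible because the groups share no replicate numbers (1 to 4 and 5 to 8). The count of members called was 0 under every alternative run. Of 262 alternative values, 232 were marked as unchanged. For fold changes and shares that means the same direction and side of the threshold, and for counts a like size. Fold changes under the stricter threshold repeat the main value, and those scaled to transcript length could change only in direction. The count of genes called, 0 by edgeR, was 190 with DESeq2 (142 higher, 48 lower), 9 without the sham libraries from 200 pg, 5 with amplification cycles as a covariate, and 0 to 2 with each replicate left out (1 without scopolamine replicate 4 and 2 without sham replicate 5); the cause was not tested. Scaling to tuft cell markers moved the median of all genes from -0.01 to 0.20 and Gnat3 to 0.040, Gng13 to -0.37, Plcb2 to -0.015, Itpr2 to -0.011, Itpr3 to 0.32, Trpm5 to 0.17 and Trpm4 to 1.06, with 0 called. Gnat3 also turned to 0.45 without the libraries from 200 pg, 0.46 with cycles and 0.10 with scaling to genes of like transcript length. Itpr2 turned to 0.0088 with cycles, and Itpr3 to -0.019 with the mouse ID letter. Trpm5 turned to -0.016 with limma-voom, -0.016 with no filter, and -0.21 with the mouse ID letter. Its difference of mean log2 CPM was -0.0064 before scaling to length and -0.018 after. With each replicate left out, Gnat3 ran from -0.55 to 0.34, Itpr3 from -0.030 to 0.39 and Trpm5 from -0.13 to 0.14, all without a call. The difference in the Gnat3 share turned to 1.52 points without the libraries from 200 pg and ran from -1.08 to 1.21 with each replicate left out, and that of the TRPM members turned to -0.034 with the median coding transcript. Of 7 neighbours in the order of levels, 4 differed at 0.05, 7 with the median coding transcript, 3 to 5 with each replicate left out, and 0 without the libraries from 200 pg (smallest adjusted p 0.0547, exact sign-flip test over 6 libraries). At 0.1 these counts were 5, 7, 4 to 5, and 5. Gnb3 was listed at 0 in 5 libraries, where that count allows at most 0.0724 to 0.148 CPM before TMM scaling, and the part of depth in its counts was not tested.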

Other observations

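Enteroendocrine markers (25 genes) summed to 499 to 1152 CPM with scopolamine and to 187 to 1590 CPM in sham (exact permutation p = 0.686), and 20 of the 25 had the higher mean with scopolamine. DESeq2 (1.31% of all genes called) called Scg3, a granin, at 1.09 CPM on average with scopolamine and 0.0247 CPM in sham, which was below the filter of edgeR. Sham replicate 7 held the highest enteroendocrine sum (1590 CPM), and the other sham libraries (187 to 312 CPM) lay below every scopolamine library. The median log2 fold change of the 20 enteroendocrine genes tested was 1.13. Stem and cycling markers (10 genes) summed to 202 to 380 CPM with scopolamine and 227 to 361 CPM in sham (exact permutation p = 0.686), a sum in which 5 of the 10 had a fold change above 0 and 5 below. Of these 10 genes, 3 had an unadjusted p under 0.05 in edgeR, against 5.99% of all genes, and all 3 were higher with scopolamine. Among them, Birc5, a mitotic survivin, had a log2 fold change of 2.19 (adjusted p = 0.812 by edgeR and 0.0654 by DESeq2) and Ccnb1, cyclin B1, of 2.61 (adjusted p = 0.812 by edgeR and 0.204 by DESeq2). Lymphocyte markers (15 genes) summed to 64.0 to 232 CPM with scopolamine and 61.0 to 287 CPM in sham (exact permutation p = 0.714). No gene of these lists was at 0 in every library.

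Of 12 gamma subunits 11 had a count and 8 were tested, and none was called by edgeR or DESeq2. Of the 8, 2 had an unadjusted p under 0.05 in edgeR (5.99% of all genes tested), 1 higher and 1 lower with scopolamine. Gng5 had a log2 fold change of -0.37 (standard error 0.16, adjusted p = 0.812 by edgeR). Of 16 alpha subunits 13 were tested, of 5 beta subunits 3, of 4 phospholipases C beta 3, of 3 IP3 receptors 3 and of 8 TRPM channels 4, and none was called by either tool. Plcb3 had a log2 fold change of 0.85 (standard error 0.59) and Itpr1 of -0.62 (standard error 0.52).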
